A study of Mus musculus with 2 samples.

Results

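Glucose feeds a macrophage through glycolysis, the pentose phosphate pathway and the entry of pyruvate into mitochondria. The 37 genes described here encode the carriers, enzymes and kinases of these routes, are picked out by gene symbol, and all 37 had a row among the 50608 rows of the deposited table. The cells were peritoneal macrophages of strain C57BL6J, taken from both sexes and pooled, and the labels record their developmental stage as E15.5. The control library came from macrophages treated with DMSO, the solvent, and the other library from macrophages given GW3965. This compound is a synthetic LXR agonist, and the LXRs (liver X receptors) are nuclear receptors for oxidised cholesterol. Both groups share strain, cell type, stage and pooled sexes, no transgene or deletion is named, and the dose and the time of treatment are not given in the labels. Each group holds 1 library, so no difference below has a replicate check and none was tested. The column of the GW3965 library was matched to its sample only through the first letters of its name, and each statement on GW3965 depends on that match.

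Glycolysis splits glucose into pyruvate in the cytosol and yields ATP without oxygen. Macrophages lean on it when they are activated by bacterial products, and a surplus of pyruvate then leaves the cell as lactate. The pentose phosphate pathway branches off after the first step and makes NADPH, the reductant used for fatty acid synthesis, for glutathione and for the oxidative burst, together with ribose for nucleotides. The pyruvate dehydrogenase complex turns pyruvate into acetyl-CoA in mitochondria, and its kinases switch the complex off.

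Levels are in FPKM (fragments per kilobase of transcript and per unit of sequencing depth), so genes can be set side by side within a library. The term measured is used for genes whose FPKM averaged at least 1 over both libraries, which held for 11889 rows and 35 of the 37 genes. Each fold is the ratio of the FPKM values in GW3965 and DMSO, with a 95% interval from whole read numbers worked out from the FPKM steps. These intervals cover counting error only. The sequencing depth recovered in this way was 101866062 reads for DMSO and 75287120 for GW3965. A call of higher or lower means at least 1.5-fold on the log2 scale with 1 FPKM added to both values, which makes differences of low genes look smaller. Most measured rows were higher in GW3965. Their median ratio was 1.25 and their median log2 ratio 0.24, and 93.6% of them had the higher FPKM in GW3965. The summed FPKM of all rows went the other way, since scaling to the same sum raised the median log2 ratio to 0.46. The libraries thus do not differ by a common factor alone, and the reason was not tested. Centred log2 ratios are differences from the median log2 ratio of 0.24. Because 1 FPKM is added, an abundant gene reaches the median log2 ratio at a lower FPKM ratio than 1.25, so a gene such as Ldha or Tkt can lie above the median on the log2 scale while its interval lies below 1.25.

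Measured from the median of all rows, the measured members farthest from it were Pfkfb4 and Slc2a6, at centred log2 ratios of 0.66 and 0.59, followed by G6pdx at 0.35, Slc2a1 at -0.33 and Pgk1 at 0.32. The members called higher were the carrier Slc2a6, the regulator Pfkfb4 and the pentose phosphate enzyme G6pdx, 3 of 35, against 3.46% of all measured rows. No member was called lower, against 0.0757% of rows. After centring, Slc2a6 and Pfkfb4 were the 2 called higher, against 1.38% of rows, and again none was lower, against 0.336%. With counts this small the share of members called is not read as a result about the pathway. The median log2 ratio of the 35 measured members was 0.22, beside 0.24 for all measured rows, and 20 of the 35 lay below that median. Centred values within 0.2 of it on either side were held by 26 members, or 74.3%, and by 80.3% of measured rows.

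**Figure D1:**
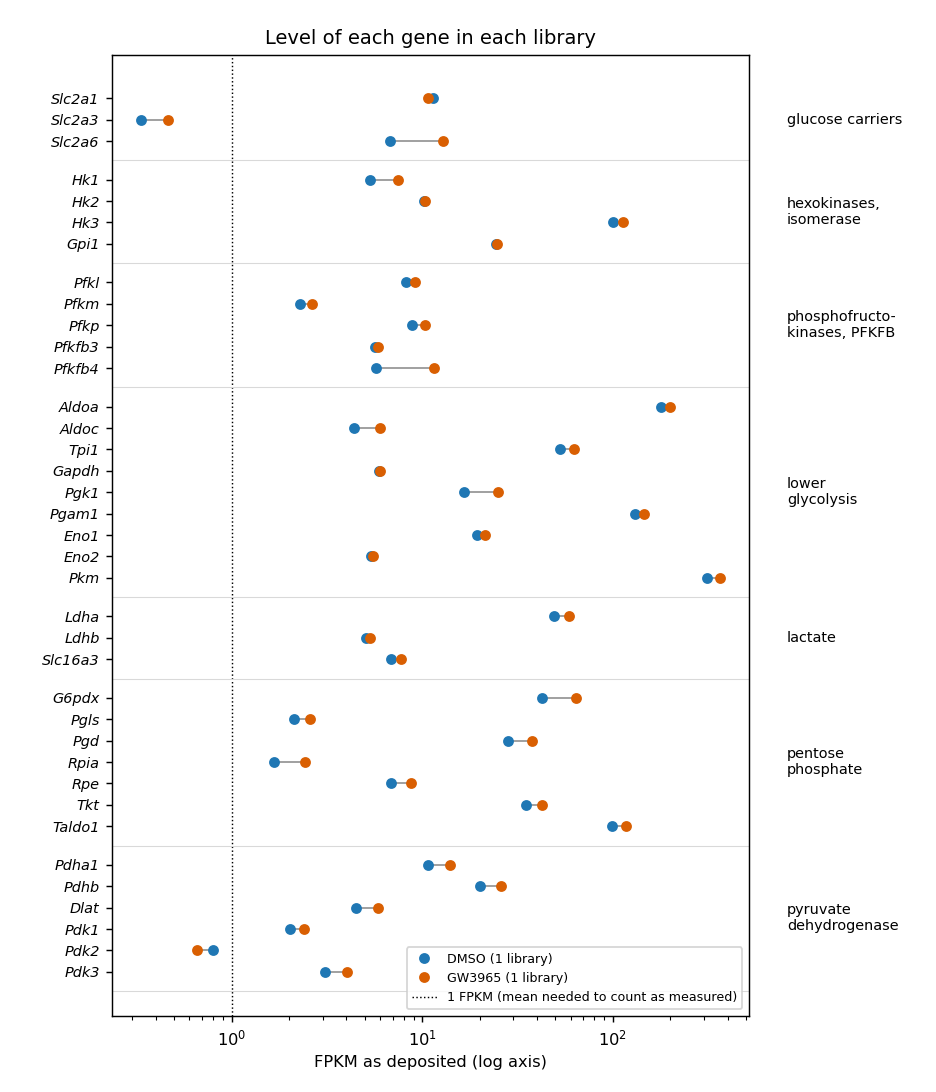
Level of each of the 37 genes in FPKM on a log axis, 1 point per library, grouped by step. Pkm, Aldoa, Pgam1, Taldo1 and Hk3 stand at 99.5 FPKM or more in both libraries, Slc2a3 and Pdk2 lie below 1 FPKM, and most pairs of points nearly touch.

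The glucose carriers went apart. Slc2a1 (GLUT1), the carrier of basal glucose uptake in most cells, had 11.5 FPKM in DMSO and 10.8 in GW3965 (ratio 0.940, interval 0.891 to 0.992). It was the only measured member with a lower FPKM in GW3965, and its centred log2 ratio of -0.33 was the lowest of the 35. Slc2a6 (GLUT6), a carrier found on lysosomes and known to be induced in inflammatory macrophages, had 6.75 FPKM in DMSO and 12.9 in GW3965 (ratio 1.90, interval 1.81 to 2.01) and a centred log2 ratio of 0.59. Slc2a3 (GLUT3), a high-affinity carrier best known from neurons, was not measured, with 0.336 and 0.466 FPKM and a ratio of 1.39 with an interval from 1.16 to 1.66. Of the summed FPKM of these 3 carriers, Slc2a1 held 61.8% in DMSO and 44.7% in GW3965, and Slc2a6 held 36.4% and 53.4%, so the order of the pair was opposite in the libraries. Such a share within a family does not depend on the scale between the libraries.

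Hexokinases trap glucose in the cell as glucose phosphate. Hk3, the form abundant in myeloid cells, had 99.8 FPKM in DMSO and 113 in GW3965 (ratio 1.13, interval 1.12 to 1.15). It held 86.5% of the hexokinase FPKM in DMSO and 86.4% in GW3965. Hk2, the inducible form, had 10.3 FPKM in both libraries (ratio 1.01, interval 0.971 to 1.05), and Hk1, the widespread mitochondrial form, 5.35 and 7.44 FPKM (ratio 1.39, interval 1.34 to 1.45). The intervals of Hk1 and Hk2 do not overlap, with Hk1 above the median ratio of all rows and Hk2 below it. Intervals wholly above that median were held by 21.9% of measured rows with whole reads, and wholly below it by 24.4%. Gpi1, the isomerase that makes fructose phosphate, had 24.4 and 24.7 FPKM (ratio 1.01, interval 0.985 to 1.04).

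Phosphofructokinase commits sugar to glycolysis, and PFKFB enzymes make and remove its strongest activator. The kinase Pfkp had 8.80 FPKM in DMSO and 10.4 in GW3965 (ratio 1.18, interval 1.14 to 1.22). Pfkl, the liver form, had 8.25 and 9.14 FPKM (ratio 1.11, interval 1.05 to 1.17), and Pfkm, the muscle form, 2.29 and 2.63 FPKM (ratio 1.15, interval 1.03 to 1.29). All 3 lay slightly below the median of all rows, and their shares of the family moved by 1.37 percentage points at most. The PFKFB pair did not move together. Pfkfb3, the form with the strongest kinase activity, had 5.62 and 5.89 FPKM (ratio 1.048, interval 1.003 to 1.094). Pfkfb4 had 5.71 FPKM in DMSO and 11.5 in GW3965 (ratio 2.02, interval 1.93 to 2.11) and a centred log2 ratio of 0.66, the highest of the 35 members and the 145th highest of 11889 rows. The pair had nearly equal levels in DMSO, and Pfkfb4 held 50.4% of their FPKM there and 66.2% in GW3965.

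**Figure D2:**
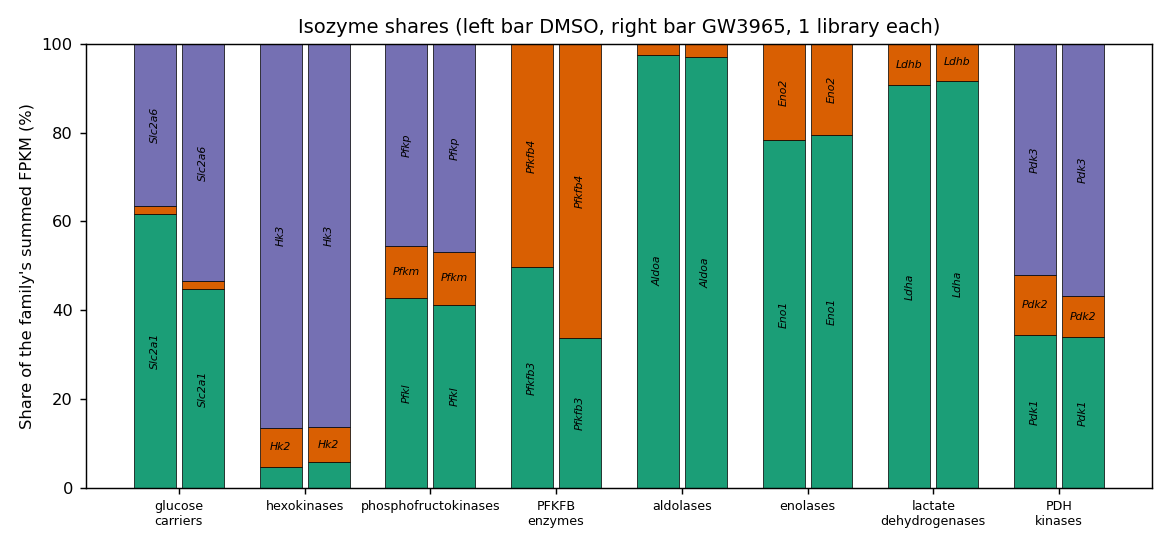
Share of each isozyme in the summed FPKM of its family in percent, left bar DMSO and right bar GW3965, 1 library each. The carriers and the PFKFB enzymes shift by more than 15 percentage points, and the other families by less than 5. The thin segments without a name are Slc2a3, Hk1 and Aldoc.

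Sequence before the start of Slc2a6 and Pfkfb4, and of their partners Slc2a1 and Pfkfb3, is shown because the shifts within these pairs are what the comparison turns on. The window searched was the 250 bases before the RefSeq start on GRCm38.p6. In GENCODE release M21 some of these genes start further upstream, so that 34 bases of the window of Slc2a1, 148 of Pfkfb3, 124 of Pfkfb4 and all 250 of G6pdx lie inside the annotated gene. Only the bases outside it are printed, 5′ to 3′ on the strand of the gene, and none for G6pdx. The motifs, searched on both strands and marked by capitals, were the E box CACGTG bound by factors such as ChREBP and USF, the core ACGTG shared by that box and by sites of hypoxia inducible factors, the nuclear receptor element AGGTCA, of which LXR sites hold copies or close relatives, the GC box GGGCGG bound by Sp1, and CCAAT. The motifs and the genes shown were chosen after the values were seen, and GGGCGG and CCAAT were added after the first 3 motifs gave no match in the members called higher. The printed stretches lie, for Slc2a1 on the plus strand at chr4:119108495-119108710, for Pfkfb3 on the minus strand at chr2:11554078-11554179, for Slc2a6 on the minus strand at chr2:27027999-27028248 and for Pfkfb4 on the plus strand at chr9:108991652-108991777.
Slc2a1: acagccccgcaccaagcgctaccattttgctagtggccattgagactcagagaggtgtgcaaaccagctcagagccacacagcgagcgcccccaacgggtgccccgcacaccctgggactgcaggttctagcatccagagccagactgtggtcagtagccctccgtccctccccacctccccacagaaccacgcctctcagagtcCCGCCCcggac
Pfkfb3: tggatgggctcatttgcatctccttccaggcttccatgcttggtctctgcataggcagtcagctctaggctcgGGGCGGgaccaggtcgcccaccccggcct
Slc2a6: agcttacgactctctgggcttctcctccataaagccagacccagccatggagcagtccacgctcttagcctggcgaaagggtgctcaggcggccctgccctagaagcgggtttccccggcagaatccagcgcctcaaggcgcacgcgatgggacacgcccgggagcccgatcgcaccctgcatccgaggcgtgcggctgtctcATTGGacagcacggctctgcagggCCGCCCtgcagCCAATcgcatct
Pfkfb4: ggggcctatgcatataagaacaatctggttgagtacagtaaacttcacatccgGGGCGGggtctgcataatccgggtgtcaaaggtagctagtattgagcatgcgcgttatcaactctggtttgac

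In the full windows of 250 bases, neither CACGTG nor AGGTCA was found in these 4 genes or in G6pdx. ACGTG occurred 1 time each in Slc2a1 and Pfkfb3, inside the annotated genes and so not printed, and in none of the members called higher. GGGCGG occurred 2 times each in Slc2a1, Pfkfb3 and Pfkfb4, 1 of them in the printed stretch, and 1 time each in Slc2a6 and G6pdx. CCAAT occurred 2 times in Slc2a6 and 1 time in Pfkfb4. RefSeq promoters were at hand for 36 of the 37 members. Among these, ACGTG was found in 12, against 16.6% of 27025 promoters of the same length, GGGCGG in 24, against 32.9%, CACGTG in 3, against 6.05%, CCAAT in 12, against 34.5%, and AGGTCA in 2, against 13.8%. The 27025 promoters were taken without a filter on expression or gene type, so they are no matched background for the members. CACGTG contains ACGTG, so the counts of these motifs overlap, and the Ldha window alone held 5 matches of ACGTG. A match is a stretch of letters and not a shown binding site, and an absent match says only that the letters are not in this window.

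The lower enzymes of glycolysis, from aldolase to pyruvate kinase, held the most abundant members, Pkm, Aldoa and Pgam1, beside far lower ones such as Aldoc, Eno2 and Gapdh. Pkm (pyruvate kinase), which makes the final pyruvate, had the highest level of all 37, with 312 FPKM in DMSO and 364 in GW3965 (ratio 1.17, interval 1.14 to 1.19). Aldoa, the aldolase of most tissues, had 178 and 200 FPKM (ratio 1.12, interval 1.11 to 1.13), and held 97.6% and 97.1% of the aldolase FPKM. Aldoc, the aldolase known from brain, had 4.40 and 6.02 FPKM (ratio 1.37, interval 1.27 to 1.47). Tpi1, which interconverts the triose phosphates, had 53.1 and 62.6 FPKM (ratio 1.18, interval 1.15 to 1.21). These values put Pkm, Aldoa and Tpi1 just below the median of all rows and Aldoc above it.

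Further down, Pgam1 (phosphoglycerate mutase) had 130 FPKM in DMSO and 146 in GW3965 (ratio 1.12, interval 1.04 to 1.20). Eno1, the widespread enolase, had 19.4 and 21.4 FPKM (ratio 1.10, interval 1.05 to 1.15), and Eno2, the neuronal form, 5.38 and 5.49 FPKM (ratio 1.021, interval 0.965 to 1.08). Pgk1 (phosphoglycerate kinase), which makes the first ATP of the pathway, stood apart, with 16.7 FPKM in DMSO and 25.0 in GW3965 (ratio 1.503, interval 1.39 to 1.63) and a centred log2 ratio of 0.32. Its log2 ratio of 0.56 fell short of the limit for a call. Gapdh, the dehydrogenase often used as a reference gene, had only 5.92 and 6.02 FPKM (ratio 1.017, interval 0.954 to 1.08), far under its neighbours in the pathway. Of the 9 lower enzymes, 7 lay below the median of all rows and 2, Aldoc and Pgk1, above it, with a centred median of -0.08.

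Several of these genes have near-identical copies, and how the authors counted reads with several matches is not stated in the labels. Of the 100-base windows of the first-numbered Gapdh transcript in GENCODE release M21, 85.8% also occur in a transcript of another gene, and 86 other genes, mostly processed pseudogenes, share at least 1 window with Gapdh. The same share was 67.0% for Pgk1, 43.6% for Eno1 and 39.7% for Pgam1, but 9.82% for Pkm and 0% for Aldoa and Eno2. The levels and ratios of Gapdh, Pgk1, Eno1 and Pgam1 are therefore uncertain, and the part of shared reads in them was not tested. The same holds for their places above or below the median of all rows in the counts given here. Eno1b, a copy that holds 20.3% of all windows of Eno1, had 0.675 FPKM in DMSO and 4.06 in GW3965. Slc2a6 and Pfkfb4 share no window with another gene. Such windows over all transcripts of a gene exceed 10% for 7 members, a limit set after the values were seen, among them Rpe and Pgls. G6pdx shares 7.53% of its windows, nearly all with Ikbkg, a neighbour on the opposite strand whose exons cover 418 bases of its own and which had 5.90 and 7.71 FPKM. No label says that the library kit kept strand, so reads in that overlap cannot be told apart.

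All 3 genes of lactate handling had ratios below the median ratio of all rows. Ldha, the form that favours lactate from pyruvate, had 49.4 FPKM in DMSO and 58.9 in GW3965 (ratio 1.19, interval 1.17 to 1.22). Ldhb, the form that favours pyruvate from lactate, had 5.06 and 5.30 FPKM (ratio 1.05, interval 0.938 to 1.17), so that Ldha held 90.7% and 91.7% of their FPKM. Slc16a3 (MCT4), the lactate exporter of glycolytic cells, had 6.84 and 7.75 FPKM (ratio 1.13, interval 1.07 to 1.20). The centred log2 ratio of Ldha was 0.01, and the other two lay below 0.

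**Figure D3:**
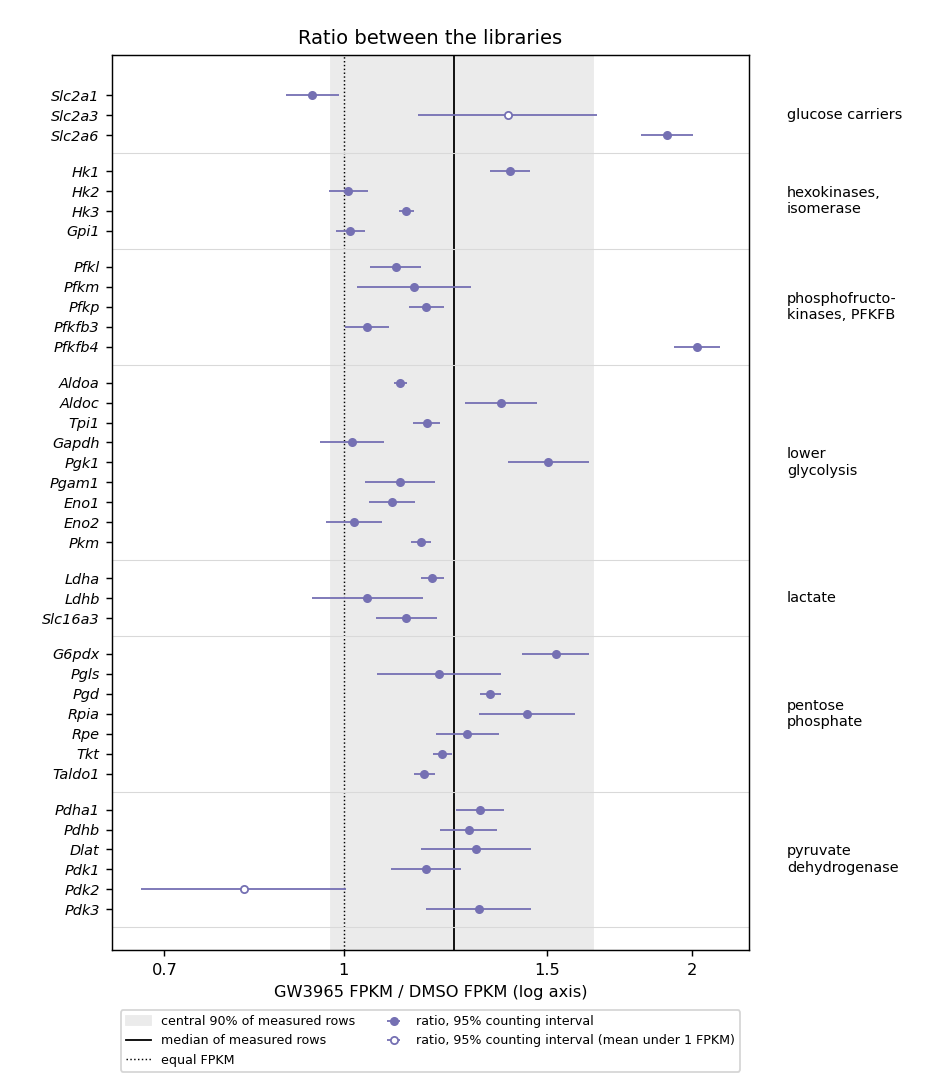
Ratio of GW3965 to DMSO FPKM for each gene on a log axis, with its 95% counting interval; the solid line is the median of all measured rows (1.25), the dotted line equal FPKM, and the grey band the central 90% of measured rows. Slc2a6 and Pfkfb4 lie right of the band, Slc2a1 and Pdk2 left of it, and most glycolytic enzymes between the lines. Open points are the genes under 1 FPKM.

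In the oxidative branch of the pentose phosphate pathway, G6pdx and Pgd, the dehydrogenases that make NADPH, were both above the median of all rows. G6pdx, the rate-limiting enzyme, had 42.2 FPKM in DMSO and 64.4 in GW3965 (ratio 1.53, interval 1.43 to 1.63) and a centred log2 ratio of 0.35, so that its call was lost on centring. Pgd had 28.3 and 37.9 FPKM (ratio 1.34, interval 1.31 to 1.37). Pgls, the lactonase between them, had 2.13 and 2.57 FPKM (ratio 1.21, interval 1.07 to 1.37), an interval that holds the median.

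In the nonoxidative branch, Taldo1 (transaldolase) had 99.5 FPKM in DMSO and 117 in GW3965 (ratio 1.17, interval 1.15 to 1.20), and Tkt (transketolase) 34.9 and 42.5 FPKM (ratio 1.22, interval 1.19 to 1.24). Rpia, the isomerase that makes ribose phosphate, had 1.68 and 2.41 FPKM (ratio 1.44, interval 1.31 to 1.58), and Rpe, the epimerase beside it, 6.84 and 8.76 FPKM (ratio 1.28, interval 1.20 to 1.36). The low Rpia was thus further above DMSO than the abundant Taldo1 and Tkt. Of the 7 pentose phosphate genes, 5 lay above the median of all rows and 2, Pgls and Taldo1, below it, with a centred median of 0.07 and values from -0.05 to 0.35.

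The 3 pyruvate dehydrogenase subunits among the members had nearly the same ratio. Pdha1, part of the first enzyme of the complex, had 10.7 FPKM in DMSO and 14.0 in GW3965 (ratio 1.31, interval 1.25 to 1.38). Pdhb, its partner subunit, had 20.1 and 25.8 FPKM (ratio 1.28, interval 1.21 to 1.36), and Dlat, the acetyltransferase of the complex, 4.504 and 5.86 FPKM (ratio 1.30, interval 1.17 to 1.45). The counting intervals of the 3 subunits overlap, and all 3 ratios lie just above the median ratio of all rows. Other components of the complex, outside the members, differed more. Dld had a ratio of 1.39 (interval 1.33 to 1.45) and Pdhx, below that median, 1.20 (interval 1.10 to 1.31). The intervals of Dld and Pdhx do not overlap.

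Among the kinases that inactivate the complex, Pdk3 had 3.07 FPKM in DMSO and 4.02 in GW3965 (ratio 1.31, interval 1.18 to 1.45), and Pdk1 had 2.03 and 2.40 FPKM (ratio 1.18, interval 1.10 to 1.26). Pdk2, with 0.801 and 0.657 FPKM and a ratio of 0.820 with an interval from 0.668 to 1.004, was not measured by the limit of 1 FPKM, and the upper end of its interval reaches equal FPKM. Of the summed FPKM of the 3 kinases, Pdk3 held 52.0% in DMSO and 56.9% in GW3965, and Pdk2 13.6% and 9.28%.

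In the 23 measured genes of carriers, glycolysis and lactate, the centred median was -0.08, and 17 lay below the median of all rows. The 2 measured carriers alone had a centred median of 0.13, with 1 above and 1 below. The 7 pentose phosphate genes and the 5 measured genes of pyruvate dehydrogenase had centred medians of 0.07 in both groups. By counting error alone, the intervals of 19 of the 35 members lay wholly below the median ratio, against 24.4% of the 11863 measured rows with whole reads, and those of 9 lay wholly above it, against 21.9%. Abundant genes have narrow intervals, so these counts depend on level, and no test of the difference between steps was possible. Of the 19, 17 were genes of carriers, glycolysis and lactate.

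Neighbouring pathways were described from lists of 137 matched genes, 102 of them measured. Of these, 5 were called higher, against 3.46% of all measured rows, and none lower. After centring 2 were higher, against 1.38%, and none lower, and their centred median was 0.02. In the tricarboxylic acid cycle all 18 genes were measured, none was called, and the centred median was 0.06. Mdh1 had 29.5 FPKM in DMSO and 39.8 in GW3965, Idh2 7.34 and 7.98, and Ogdh 19.7 and 18.6, the lowest centred value of that list at -0.33. Among 8 measured genes of pyruvate entry outside the members, none was called. The phosphatase Pdp2, which reactivates pyruvate dehydrogenase, had 5.40 and 8.44 FPKM, Dld, the third enzyme of the complex, 18.7 and 26.0, and the pyruvate carrier Mpc1 5.24 and 5.41.

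A list of genes for citrate export and cytosolic NADPH, carriers among them, held 2 of the calls. These were 2 of 7 measured genes, against 3.46% of all measured rows. After centring none was called, against 1.38% called higher. Idh1, an isocitrate dehydrogenase that makes NADPH, had 44.5 FPKM in DMSO and 79.3 in GW3965 (ratio 1.78, interval 1.74 to 1.83) and a centred log2 ratio of 0.58, just under the limit. Me2, a mitochondrial malic enzyme placed in the same list, had 5.26 and 8.44 FPKM and a centred value of 0.35. Acly, which splits citrate into acetyl-CoA, had 37.2 and 55.4 FPKM and was not called. Of 13 measured glycogen genes, Ugp2, which makes UDP-glucose, was the only one called, against 3.46% of measured rows, and none was called after centring. Ugp2 had 36.5 and 63.2 FPKM and a centred value of 0.53, while Gys1 (glycogen synthase) had 2.44 and 2.52 FPKM.

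The hypoxia list holds Hif1a and targets outside glycolysis, since many glycolytic genes are known targets of hypoxia inducible factors. Of its 13 measured genes, 2 were called higher, against 3.46% of measured rows. The same 2 were called after centring, against 1.38%. None was lower, and the centred median was 0.13. With counts this small the share is not read as a result about the list. Ndrg1 had 5.82 FPKM in DMSO and 17.6 in GW3965 (ratio 3.03, interval 2.91 to 3.14), and Vegfa, the endothelial growth factor, 4.18 and 9.64 FPKM (ratio 2.31, interval 2.18 to 2.44). Hif1a itself had 14.0 and 20.6 FPKM and a centred value of 0.28.

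In the remaining lists no gene was called. The 13 measured other isozymes and carriers had a centred median of -0.02. Among them, Adpgk, a glucokinase that uses ADP, had 4.66 FPKM in DMSO and 7.39 in GW3965. The monocarboxylate carrier Slc16a7 had 5.09 and 7.40 FPKM and the sugar carrier Slc2a8 1.97 and 1.98. Slc2a4 (GLUT4), the insulin-responsive carrier of muscle and fat, was below the measured limit at 0.0334 and 0.346 FPKM, from 14 and 107 reads (ratio 10.3, interval 5.90 to 19.6). It is named because its values were seen. The hexosamine list, 8 measured, had a centred median of -0.04, with Gfpt1, its entry enzyme, at 7.52 and 11.6 FPKM, Gnpnat1 at 3.34 and 5.06 and Amdhd2 at 15.497 and 16.03. The centred medians were -0.08 for entry of fructose, galactose and mannose (10 measured), -0.07 for the glycerol phosphate and malate aspartate shuttles (6 measured) and 0.02 for glucose sensing factors (6 measured). In the sugar entry list, Sord had 24.5 and 25.5 FPKM and Galt 2.73 and 2.91. In the shuttle list, Got2 had 33.8 and 35.7 FPKM, Slc25a12 6.36 and 6.93 and Got1 14.9 and 16.7. Prkaa1, a catalytic subunit of AMP kinase, had 6.85 and 9.15 FPKM, Mlxip (MondoA) 10.3 and 11.4 and Arrdc4 2.51 and 2.88.

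**Figure D4:**
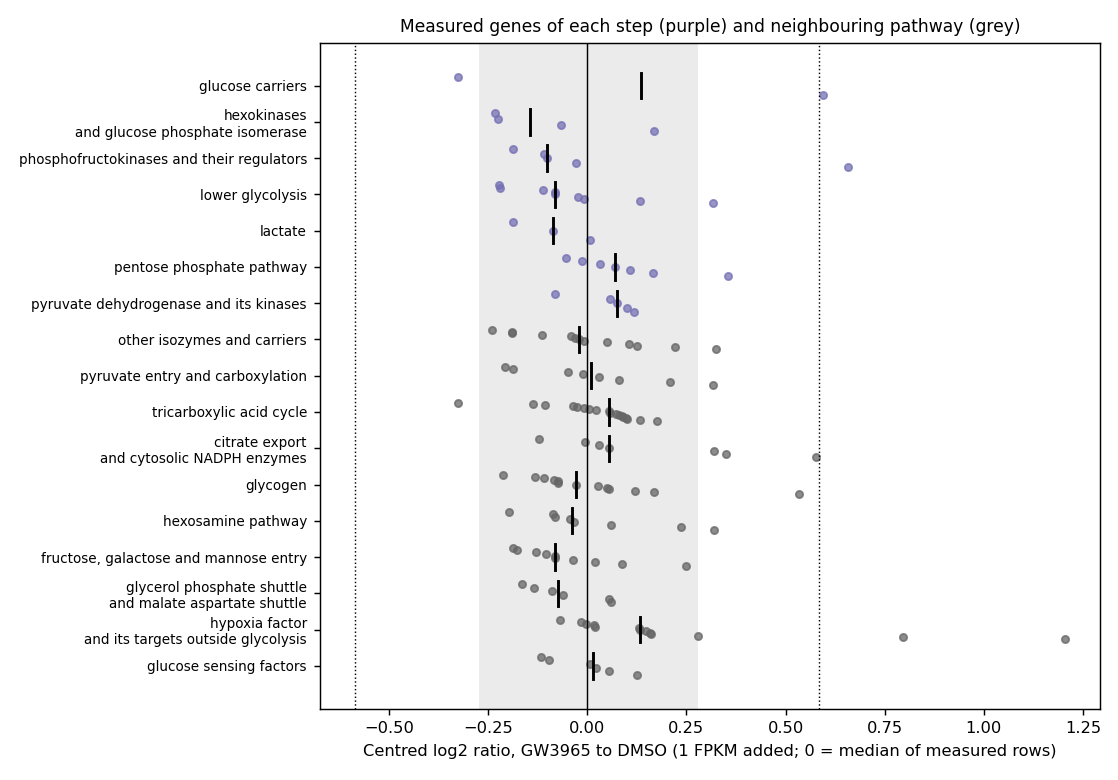
Centred log2 ratio of each measured gene (points) by step of the pathway (purple) and neighbouring list (grey), with the median of each list as a black bar, the 1.5-fold limits dotted and the central 90% of measured rows in grey. Slc2a6, Pfkfb4, Vegfa and Ndrg1 lie beyond the upper limit and no gene lies beyond the lower one.

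As a check of the labels, 7 of 8 LXR targets were called higher in the GW3965 library before and after centring. The shares of all measured rows were 3.46% before and 1.38% after. Of these targets, Abca1, the cholesterol exporter, had 19.9 and 261 FPKM, Scd1 15.4 and 132 and Fasn 8.90 and 42.9. All 10 macrophage markers were measured, and their summed FPKM was 5077 in DMSO and 6090 in GW3965. Of 13 mesothelial and fibroblast markers 7 were measured, with none at 0, and their sum was 21.1 FPKM in DMSO and 31.9 in GW3965, led by Dcn at 6.91 and 11.6 FPKM. The 6 B cell markers summed to 2.78 and 4.12 FPKM, and the T and NK cell, neutrophil, eosinophil and mast cell, dendritic cell, erythroid and platelet, and muscle and liver lists each to between 0.222 and 5.67 FPKM in a library. The summed mesothelial and fibroblast markers were 1.52 times as high in the GW3965 library, where Slc2a6, Pfkfb4 and G6pdx were also higher, and their part in those values was not tested. This was not particular to that list. At low levels, the T and NK cell, eosinophil and mast cell, and muscle and liver sums had higher ratios of 2.01, 1.70 and 2.64. Those of the B cell and dendritic cell lists were 1.48 and 1.49. The sums of the macrophage, neutrophil, and erythroid and platelet lists had ratios of 1.1996, 1.12 and 1.18, below the median ratio of all rows. In a bulk library, fewer cells of a type and less RNA per cell cannot be told apart.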

How the data were processed

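RNA of 2 libraries, 1 per group, was compared, from TruSeq RNA kits per the labels' protocols. The authors deposited FPKM values in 1 table. STAR 2.3.0 and HTSeq 0.5.4p3 appear in the submitters' processing notes with the builds GRCm38 and mm10, without a role. Neither annotation, strand setting nor filters are stated there. Depths were taken from the steps of FPKM: a row's value is whole reads over a whole length times a whole depth. With lengths from 100 to 20000 bases tried, 99.8% of 11889 measured rows gave whole reads in both libraries within the rounding of the last decimal, against 1.45% when the DMSO depth was moved by 300 reads. The smallest fitting reads were used, 248 to 54755 for members in DMSO; true reads may be a multiple, which would narrow the interval. Intervals are exact conditional (Clopper-Pearson). The step was tested on simulated data, where both depths were recovered.

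The members and lists were chosen with earlier results of these data known. Every member is named, and of each other list up to 3 measured genes with the largest centred value, in either direction; the remaining names were chosen after their values were seen. Some genes under this rule are not reported here. Of 249 list entries 3 were matched through RefSeq synonyms and 2 had no match. The rule of smallest reads, the windows shared with other genes, the distance of 0.2 and the motifs were chosen after seeing the data. Promoters are from RefSeq, the first entry per symbol. The alternatives were other pseudocounts, filters, scalings and limits, and leaving out rows or members with copies. Scripts ran in Python 3.11.15 with scipy 1.17.1, numpy 2.4.6, matplotlib 3.10.9 and pandas 2.3.3.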

Additional observations from a re-analysis of the deposited data

How the results depend on the processing

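No paired analysis was possible because there is 1 library per group. The count of 3 members higher was 9 after scaling to the same sum of FPKM (21.9% of all rows higher), 1 after scaling to the same upper quartile (1.36% of rows) and 0 at a limit of 2-fold (0.984% of rows). The count of members lower was 0 under every alternative run. The median log2 ratio of the members, 0.22, was 0.49 after scaling to the same sum (0.46 for all rows), -0.0219 after centring, -0.0692 after scaling to the same upper quartile, and -0.00998 after centring without NONCODE, Gm, Rik and pseudogene rows, an alternative chosen after seeing the data. These scalings shift all rows by construction. Of the members, 20 were below the median of all rows, and 8 when rows of any level set it, since that median is then 0.07. Of 210 values of single members under alternatives, 197 kept their side of the limit, 6 fell under it and 7 passed it. The sign of the log2 ratio changed for 19 members on centring, 21 under the upper quartile and 1, Slc2a1, under the same sum, all of them values that were not called. Pgk1 passed the limit with 0.1 FPKM added, and Slc2a6 fell under it at 0.55 after scaling to the same upper quartile. No member had a row for a copy of the kind planned for removal. Depth sets the counting intervals only; the spread between cultures is unknown.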
